A study of Danio rerio with 6 samples.

Results

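The zebrafish mitochondrial genome is annotated with 37 genes in the deposited table of 32266 Ensembl genes, and all rows whose every exon lay on chromosome M were taken as its transcripts. They comprised 13 protein-coding genes, 2 ribosomal RNA (rRNA) genes and 22 transfer RNA (tRNA) genes, with 28 on the plus and 9 on the minus strand. The gene table named the 13 protein-coding genes by their Ensembl identifier, and the other 24 were named by identical start and end positions in RefSeq's annotation of the zebrafish mitochondrial genome. A mean count of 100 or more over the samples was found for 16 genes, which are called well-counted here, and the other 21 lay below it.

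RNAseq was performed on sorted DsRed-positive cells of zebrafish embryos heterozygous for the pax8:DsRed transgene. The transgene is active at early segmentation in the otic-epibranchial progenitor domain (OEPD), from which the inner ear arises, and in the nephric anlagen. Per the study, wild-type and morpholino-injected embryos were both dissociated at late OEPD stages, and AB was the wild-type line. Controls I, II and III (n = 3) came from wild-type embryos, and atoh1b-MO II, IV and V (n = 3) from morphants, in which a morpholino was directed against atoh1b, a gene needed for the first hair cells. The morpholino acts in the whole embryo, and the transgene drives the reporter in more than 1 tissue, so each sample is a mixture of cell types. Samples were assigned by their titles, since the genotype entry of the morphant samples gives dlx3b/4b where titles and study give atoh1b.

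Mitochondrial DNA encodes core subunits of the respiratory chain, namely of complexes I, III and IV, and of the ATP synthase (complex V). Both strands are transcribed into long precursors, and the tRNAs that lie between the other genes are cut out to release the mRNAs and rRNAs. Most mitochondrial mRNAs of vertebrates then receive a poly(A) tail, and in humans the mRNA of ND6 is an exception.

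Total counts per sample ranged from 24120228 to 37169850. The floor of 3 counts was equal to between 0.0807 and 0.124 CPM, the count scaled to a common library total. The knockdown could not be checked, because atoh1b lies on an unplaced scaffold whose 2 genes had 0 counts in every sample. Levels of single genes are given in CPM scaled by TMM (trimmed mean of M values, which sets each library against the bulk of its genes) unless stated per kb. Control III went against its label as a sample of pax8:DsRed cells. It had pax8 at 16.5 CPM, against 295 and 227 CPM in controls I and II and 109 to 201 CPM in the atoh1b-MO samples. Its summed level of 5 nephric genes was 66.9 CPM, against 1321 and 1531 CPM in the other controls, and that of 3 blood genes was 89.2 CPM, against 2238 and 2878 CPM. All 7 muscle and forebrain marker genes were higher in control III than in both other controls. The study left out a wild-type sample that its text does not name, and whether this was control III is not given in the labels. Results are therefore given with and without control III. No 2 samples agreed within sampling noise over the mitochondrial genes, with a chi-square statistic between 49.8 and 329.1 per degree of freedom. Where p-values are given they measure the spread between these samples, which the study calls biological replicates. The study's own model held a factor for the clutch, which the labels do not give, so the fits here do not account for it.

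Mitochondrial transcripts took 1.84% and 2.10% of all counts in controls I and II and 2.82% in control III. In atoh1b-MO II, IV and V they took 2.99%, 3.43% and 2.63%. Controls I and II thus lay below all other samples, and control III lay between atoh1b-MO V and II. The highest share was 1.86-fold the lowest. For the 25 nuclear chromosomes, which hold many more genes each, this ratio ranged from 1.01 to 1.12. In bulk samples fewer cells of a type and less RNA per cell cannot be told apart. The number and state of mitochondria per cell was not measured, and the part of the mix of sorted cells in these shares was not tested.

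The mitochondrial counts were mainly mRNA and rRNA. Protein-coding genes took between 69.02% and 73.4% of the mitochondrial counts, rRNA genes between 26.6% and 30.9% and tRNA genes between 0.0536% and 0.0826%. The mRNAs of complex IV made up the largest class of mRNA, with 40.8% to 44.3% of the mitochondrial counts. Those of complex I followed with 14.1% to 16.1%, although 7 of the 13 protein-coding genes belong to it. Complex V mRNAs took 6.48% to 7.84%, and mt-cyb, the mRNA of complex III, took 6.17% to 7.55%. Poly(A) selection preceded sequencing per the labels, so these shares do not give the relation of rRNA to mRNA in the cells.

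**Figure D1:**
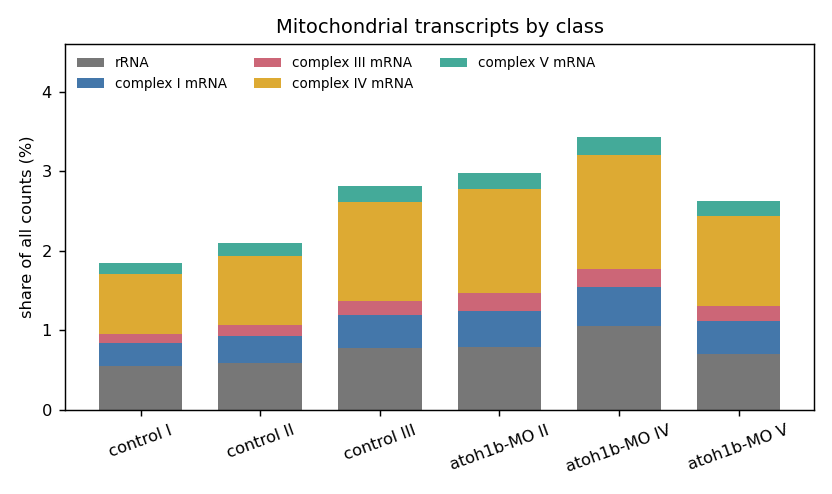
Share of all counts (%, vertical axis) taken by mitochondrial rRNA and by the mRNAs of complexes I, III, IV and V in each of the 6 samples, as stacked bars. Totals run from 1.84% in control I to 3.43% in atoh1b-MO IV, and each class is smallest in control I; tRNA is too small to be drawn.

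To compare genes with each other, CPM without TMM scaling were divided by the length of the gene in kb. The order of these levels, averaged over the 6 samples, was mt-rnr2, mt-co1, mt-co3, mt-co2, mt-atp6, mt-cyb, mt-nd1, mt-nd2, mt-nd4, mt-nd3, mt-atp8, mt-nd5, mt-nd4l, mt-rnr1, trnD and mt-nd6. Mean levels ran from 4348 ± 1063 CPM per kb (SD, n = 6) for mt-rnr2 to 79.8 ± 22.8 CPM per kb for mt-nd6. The ranges of neighbours in this order overlapped across samples in all 15 pairs. Within samples the order was steadier. For 11 of the 15 pairs the upper gene was higher in 6 of 6 samples, and for the others in 5 of 6. The level did not fall steadily along the plus strand, since mt-cyb, the last mRNA on it, stood above mt-nd1, the first.

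**Figure D2:**
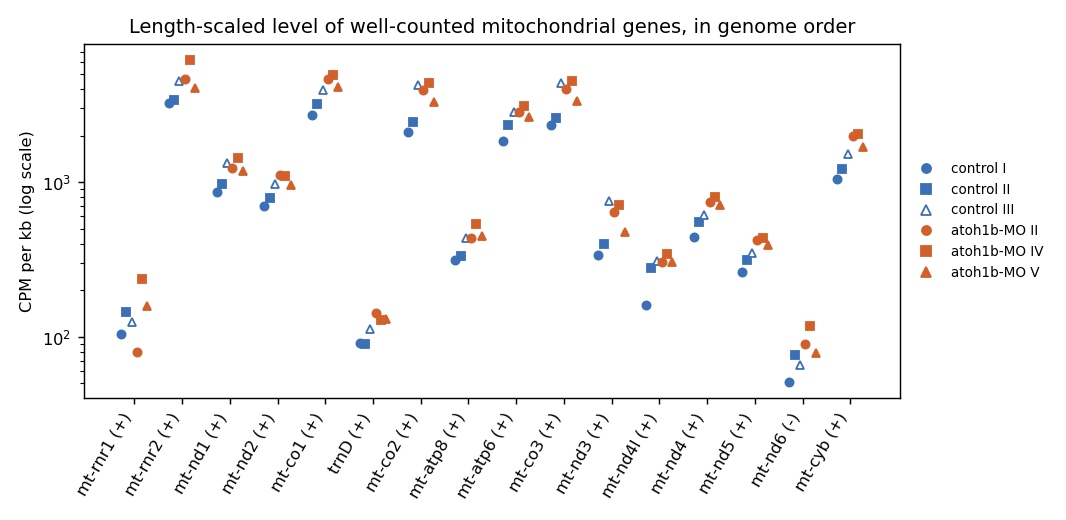
Level of the 16 well-counted genes in CPM per kb (log axis), in the order of the genome with the strand in brackets, 1 point per sample. The mRNAs of complex IV and mt-rnr2 lie highest, and mt-nd6 on the minus strand and trnD lie lowest by their means, with control I the lowest point for most genes.

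The 2 rRNA genes are neighbours on the plus strand, parted only by trnV, and were counted very unequally. The large-subunit gene mt-rnr2 (chromosome M, 2043 to 3725) had 156100, 213029 and 223116 counts in controls I, II and III and 197270, 250256 and 200534 counts in atoh1b-MO II, IV and V. Its rank by count among all genes of the table lay between 2 and 7. The small-subunit gene mt-rnr1 (1020 to 1971) had 2854, 5137 and 3442 counts in the controls and 1899, 5435 and 4392 counts in the atoh1b-MO samples. Per kb, mt-rnr2 exceeded mt-rnr1 by a ratio of 30.9, 23.5 and 36.7 in controls I, II and III. In atoh1b-MO II, IV and V the ratio was 58.8, 26.05 and 25.8. Atoh1b-MO II stood apart here, because its mt-rnr1 took 0.253% of the mitochondrial counts against 0.418% to 0.658% in the other samples. Its mt-rnr2 took 26.3%, within the range of 26.1% to 30.3% over all samples.

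In TMM-scaled CPM, mt-rnr2 stood at 5624, 5700 and 7994 CPM in the controls and at 7706, 10180 and 6661 CPM in the atoh1b-MO samples. Control III lay within the atoh1b-MO range, and controls I and II lay below it. Set against controls I and II, mt-rnr2 had a log2 fold change of 0.54 (standard error, SE, 0.16, adjusted p-value 0.276, edgeR). For mt-rnr1 it was 0.30 (SE 0.38), and its groups overlapped.

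To ask whether Atoh1b depletion changed mitochondrial transcripts, all genes were tested with edgeR, first without control III and then with all 6 samples. In the first comparison 3 mitochondrial genes were called higher in the atoh1b-MO samples at an adjusted p-value below 0.1, namely mt-cyb, mt-co1 and mt-co2, and 0 were called lower, with 0 lower among all members also in DESeq2 and in limma voom. Of the 37 genes, 24 passed the filter on low counts and 13 did not. Among all 18397 genes tested, 0.598% were called, 0.451% as higher and 0.147% as lower. Of the 24, 16 had an unadjusted p-value below 0.05, all of them as higher, against 11.2% of all genes tested and 6.62% as higher. A log2 fold change above 0 was seen for 22 of the 24, all but trnI and trnC, against 50.9% of all genes tested. In TMM-scaled CPM all 3 atoh1b-MO samples lay above controls I and II for 17 of the 24, against 15.1% of all genes tested. The 16 well-counted genes had a median log2 fold change of 0.52, and all genes tested one of 0.01. These genes share precursors and libraries, so they are not replicates of each other. Without atoh1b-MO IV no member was called (0), and 6 and 4 members were called without atoh1b-MO II and V. The median log2 fold change of the well-counted genes was 0.43, 0.56 and 0.57 without atoh1b-MO IV, II and V. Without control I or II, which leaves 1 control, this median was 0.45 and 0.61. These fits have fewer samples, so a lost call does not show that the 3 calls rested on a single library. Under other settings of the first comparison, 13 members were called with DESeq2, 12 without the filter and 1 (mt-cyb) with a minimum of 10 counts in every sample. The share of all genes called under these alternatives is not given here, so a higher count does not show a larger mitochondrial change.

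With control III included, 0 of the 23 mitochondrial genes tested and 0 of all 17874 genes (0% in each direction) were called by edgeR. Of the 23, 6 had an unadjusted p-value below 0.05, all of them as higher, against 5.82% of all genes tested and 3.34% as higher. A log2 fold change above 0 was seen for 22 of the 23, all but trnI, against 47.6% of all genes tested. DESeq2 called 1 member in this comparison (trnM), and limma voom with sample weights called 0. The shares of all genes called by these other tools are not given here, so trnM is not shown to stand apart. The smallest adjusted p-value of a member was 0.731 (edgeR). The median log2 fold change of the 16 well-counted genes was 0.33, against -0.02 for all genes tested. In TMM-scaled CPM, all 3 atoh1b-MO samples lay above all 3 controls for 7 of the 23 genes and below them for 0, against 7.36% and 5.82% of all genes tested. The 7 were mt-cyb, mt-nd4, mt-nd5, mt-nd6, trnD, trnM and trnS1. Both comparisons share controls I and II and the atoh1b-MO samples.

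Of 24 marker genes, 0 were called between controls I and II and the atoh1b-MO samples (edgeR), against 0.598% of all genes tested. Before adjustment, 7 of the 24 reached p below 0.05 in edgeR (3 otic and epibranchial, 2 blood and 2 muscle genes), against 11.2% of all genes tested. The 9 otic and epibranchial genes summed to 1124 and 1266 CPM in controls I and II and to between 730 and 1027 CPM in the atoh1b-MO samples, with a median log2 fold change of -0.49 and 1 of 9 above 0. The 3 blood genes summed to 2878 and 2238 CPM against 1190 to 2042 CPM (median -0.69, 1 of 3 above 0), and the 5 nephric genes to 1531 and 1321 CPM against 1012 to 1483 CPM (median -0.13, 0 of 5 above 0). The 3 muscle genes summed to 10.9 and 10.6 CPM against 11.4 to 17.6 CPM (median 0.89, 3 of 3 above 0), and the 4 forebrain genes to 21.9 and 33.8 CPM against 20.5 to 64.1 CPM (median 0.32, 2 of 4 above 0). No marker was at 0 except a pax2 copy in atoh1b-MO IV. The part of these markers' cells in the mitochondrial fold changes was not tested.

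**Figure D3:**
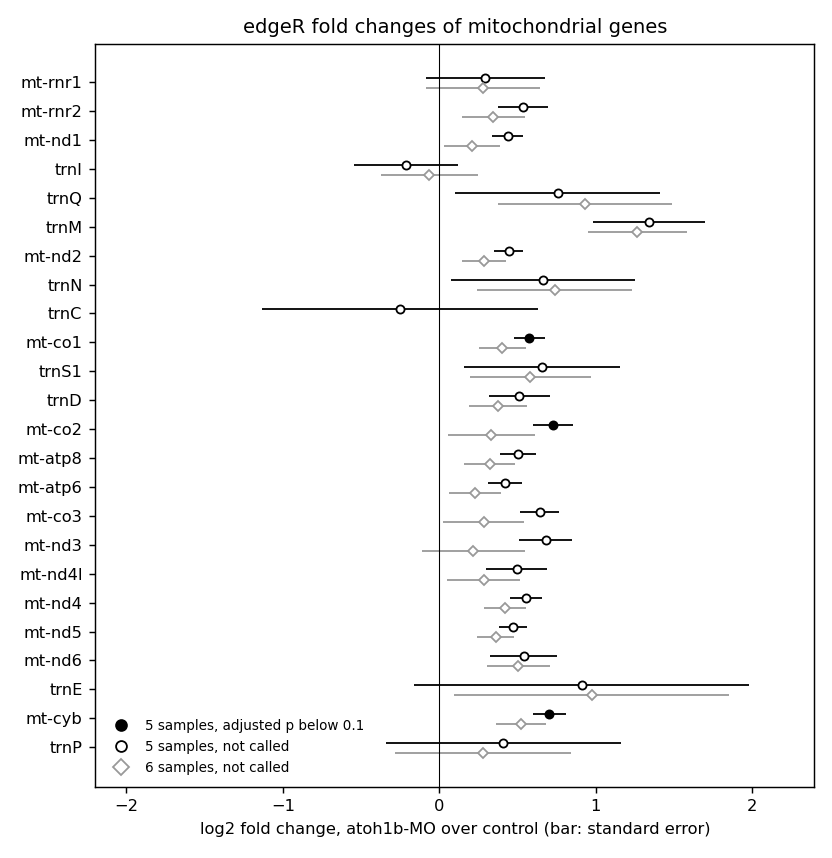
Log2 fold change of atoh1b-MO over control samples (horizontal axis) with the standard error from edgeR as bars, for the 24 mitochondrial genes tested, with 5 samples (circles, filled where the adjusted p-value was below 0.1) and with 6 samples (diamonds). Only mt-cyb, mt-co1 and mt-co2 are filled; the well-counted genes lie between 0.30 and 0.73 with 5 samples and between 0.21 and 0.52 with 6.

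The gene mt-cyb (chromosome M, 15308 to 16448, plus strand) encodes cytochrome b, the mitochondrially encoded core of complex III, which passes electrons from ubiquinol to cytochrome c. It stood at 1234 and 1379 CPM in controls I and II and at 1819 CPM in control III. In atoh1b-MO II, IV and V it stood at 2212, 2286 and 1864 CPM, so that all 3 lay above all controls, with atoh1b-MO V close to control III. Against controls I and II it had a log2 fold change of 0.70 (SE 0.11, adjusted p-value 0.0480, edgeR). With 6 samples it was 0.52 (SE 0.16, adjusted p-value 0.785, edgeR).

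Complex IV (cytochrome c oxidase) reduces oxygen, and its 3 mitochondrial subunits form the catalytic core. The mRNA of the haem- and copper-binding subunit, mt-co1 (6425 to 7975, plus strand), stood at 4385, 4950 and 6386 CPM in controls I, II and III and at 7082, 7532 and 6195 CPM in atoh1b-MO II, IV and V. Control III exceeded atoh1b-MO V and lay below the others. The log2 fold change was 0.58 (SE 0.10, adjusted p-value 0.0853, edgeR) without control III, and 0.40 with an adjusted p-value of 0.841 with it. The mRNA of the subunit that receives electrons from cytochrome c, mt-co2 (8130 to 8820, plus strand), stood at 1505, 1679 and 3073 CPM in the controls and at 2680, 2992 and 2214 CPM in the atoh1b-MO samples. Control III had the highest level of all 6 samples. It had a log2 fold change of 0.73 (SE 0.13, adjusted p-value 0.0883, edgeR) without control III, and 0.33 with an adjusted p-value of 0.875 with it.

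The remaining complex IV gene, mt-co3 (9735 to 10520, plus strand), was not called. It stood at 1891, 2024 and 3593 CPM in the controls and at 3089, 3481 and 2573 CPM in the atoh1b-MO samples, again with control III highest. The log2 fold change without control III was 0.64 (SE 0.12, adjusted p-value 0.116, edgeR). Per kb, mt-co2 stood at 0.771 and 0.761 of mt-co1 in controls I and II, at 0.849, 0.892 and 0.802 in atoh1b-MO II, IV and V and at 1.08 in control III. Control III was thus the only sample in which mt-co2 exceeded mt-co1 per kb, and the same was found for mt-co3, with a ratio of 1.11 in control III and of 0.807 to 0.912 in the other 5 samples.

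Complex I (NADH dehydrogenase) holds 7 mitochondrial subunits, all in its membrane arm. None of their genes was called in either comparison (0 of 7, edgeR), against 0.598% of all genes tested without control III and 0% with it. This depended on the tool, the settings and the samples. Without control III, DESeq2 and edgeR without the filter called mt-nd1, mt-nd2, mt-nd3, mt-nd4 and mt-nd5. Limma voom called mt-nd4 and mt-nd5 there. In the same comparison edgeR called mt-nd2, mt-nd4 and mt-nd5 with scaling by library size alone. It called mt-nd4 when atoh1b-MO II was left out and mt-nd3 when atoh1b-MO V was left out. The shares of all genes called in these other fits are not given here. Their calls therefore do not show that complex I genes stood apart from other genes. The antiporter-like subunits that take part in proton pumping are encoded by mt-nd2, mt-nd4 and mt-nd5. Gene mt-nd4 stood at 629, 763 and 891 CPM in the controls and at 1013, 1082 and 959 CPM in the atoh1b-MO samples, and mt-nd5 at 497, 572 and 662 CPM against 750, 774 and 697 CPM. Their groups did not overlap. Their log2 fold changes without control III were 0.55 and 0.47, with standard errors of 0.10 and 0.09 and adjusted p-values of 0.105 and 0.113 (edgeR). Gene mt-nd2 stood at 763, 828 and 1062 CPM in the controls and at 1135, 1126 and 976 CPM in the atoh1b-MO samples, with control III inside the atoh1b-MO range and a log2 fold change of 0.44 without control III.

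The subunit at the ubiquinone-binding site is encoded by mt-nd1 (3803 to 4777, plus strand), which stood at 865, 942 and 1351 CPM in the controls and at 1182, 1364 and 1114 CPM in the atoh1b-MO samples. The small membrane subunits are encoded by mt-nd3, mt-nd4l and mt-nd6. Gene mt-nd3 stood at 123, 138 and 278 CPM in the controls against 221, 245 and 161 CPM in the atoh1b-MO samples, with control III as the highest sample. Gene mt-nd4l stood at 49.3, 81.7 and 96.0 CPM against 88.3, 100.03 and 88.1 CPM. Control I lay far below the other 5 samples, which did not separate by group. The last 7 bases of mt-nd4l (11009 to 11305) are also the first of mt-nd4 (11299 to 12679), and mt-atp8 and mt-atp6 overlap in the same way by 7 bases. No tRNA gene lies between the genes of either pair, so their separate counts need not come from separate mRNAs. Reads in these overlaps may have been left out, and their handling is not stated.

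Complex V (ATP synthase) has 2 mitochondrial subunits. Gene mt-atp6, whose product forms part of the proton path, stood at 1298, 1582 and 2037 CPM in controls I, II and III and at 1916, 2095 and 1757 CPM in atoh1b-MO II, IV and V. Gene mt-atp8, whose product is a small membrane subunit, stood at 53.4, 54.3 and 75.1 CPM against 70.6, 86.4 and 71.8 CPM. Control III lay within the atoh1b-MO range for both genes. Per kb, mt-atp8 stood at 0.142 to 0.171 of mt-atp6. Their log2 fold changes without control III were 0.51 and 0.42 for mt-atp8 and mt-atp6, with adjusted p-values of 0.165 and 0.223 (edgeR).

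On the minus strand, mt-nd6 (14714 to 15232) is the only protein-coding gene, and the other 8 genes are tRNAs. All 9 together took 0.131% to 0.204% of the mitochondrial counts. Gene mt-nd6 had 764, 1463 and 994 counts in controls I, II and III and 1169, 1478 and 1188 counts in atoh1b-MO II, IV and V. It overlaps the end of mt-nd5 by 4 bases, and per kb it stood at 0.189 to 0.272 of mt-nd5. Its share of the mitochondrial counts was 0.144%, 0.187% and 0.121% in the controls and 0.156%, 0.179% and 0.155% in the atoh1b-MO samples, so the groups overlapped and control III was lowest. In TMM-scaled CPM it stood at 27.5, 39.1 and 35.6 in the controls and at 45.7, 60.1 and 39.5 in the atoh1b-MO samples, with control II just below atoh1b-MO V. The log2 fold change was 0.54 (SE 0.21, adjusted p-value 0.410, edgeR) without control III. The labels describe strand-specific libraries, but no source says if strand entered the counting. If it did not, reads of the plus-strand precursor and of these genes cannot be told apart.

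The tRNA genes are 68 to 77 bases long, and the reads were 75 bases long per the labels. A read from a tRNA and its flank can thus touch 2 genes. Counts were low, and 5 of the 22 tRNA genes, all on the plus strand (trnV, trnK, trnG, trnR and trnL2), had 0 counts in every sample, which allows at most 3 counts per library. Another 5 on the plus strand (trnL1, trnW, trnH, trnS2 and trnT) had at most 7 counts over all 6 samples. The median of the mean count was 0.333 for the 14 tRNA genes on the plus strand and 12.1 for the 8 on the minus strand. None of the 8 was at 0 over all samples (0 of 8), and their means ran from 3.67 for trnA to 30.2 for trnS1. The strand with fewer mRNA counts was thus the one on which every tRNA gene had counts in at least 1 sample. In single samples trnA was at 0 in atoh1b-MO IV and V, and trnY in control III. Summed tRNA counts per sample went the other way, with 317 to 437 on the plus and 81 to 156 on the minus strand. Of the 5 plus-strand genes at 0, trnV and trnK touch a neighbour without a gap on both sides. Both trnG and trnR overlap the gene before them and touch the gene after them, and trnL2 has gaps of 3 and 1 bases.

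**Figure D4:**
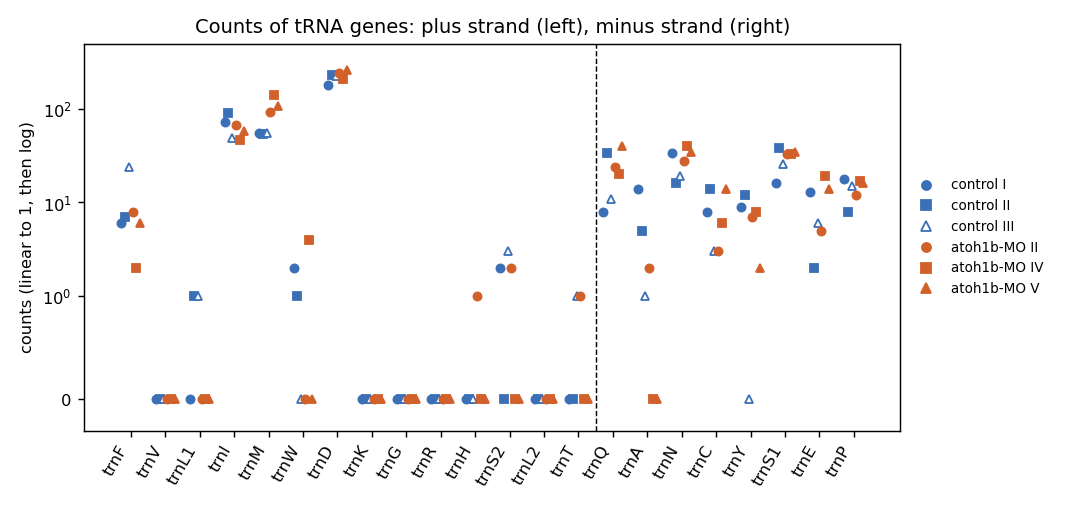
Counts of the 22 tRNA genes (vertical axis linear up to 1 and logarithmic above), 1 point per sample, with the 14 plus-strand genes left and the 8 minus-strand genes right of the dashed line. On the plus strand trnD, trnM and trnI stand far above the rest and 5 genes are at 0 in every sample. Every minus-strand gene has counts in at least 1 sample, with trnA and trnY at 0 in some.

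The well-counted tRNA gene was trnD (8049 to 8117, plus strand), the tRNA for aspartate, which is parted from its neighbours by 2 and 12 bases. It had 180, 230 and 227 counts in controls I, II and III and 246, 212 and 263 counts in atoh1b-MO II, IV and V. In TMM-scaled CPM this was 6.48, 6.15 and 8.13 against 9.61, 8.62 and 8.74, and the groups did not overlap. The log2 fold change without control III was 0.51 (SE 0.20, adjusted p-value 0.397, edgeR).

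The largest log2 fold change among the members tested was found for trnM (4924 to 4992, plus strand), the tRNA for methionine, which lies directly before mt-nd2. It had 55, 54 and 55 counts in the controls and 93, 141 and 109 counts in the atoh1b-MO samples. In TMM-scaled CPM this was 1.98, 1.44 and 1.97 against 3.63, 5.74 and 3.62, so that all atoh1b-MO samples lay above all controls, control III included. The log2 fold change was 1.34 (SE 0.36, adjusted p-value 0.232, edgeR) without control III. With control III it was 1.27 (SE 0.32, adjusted p-value 0.731, edgeR), the smallest of the members. Its neighbour trnI (4781 to 4854, plus strand), on the far side of trnQ, did not share this pattern, with 72, 92 and 49 counts in the controls and 68, 47 and 59 counts in the atoh1b-MO samples and a log2 fold change of -0.21.

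Shares within the mitochondrial counts do not depend on scaling against nuclear genes, so the composition was compared next. For the 16 well-counted genes the coefficient of variation over the 6 samples ranged from 4.49% for mt-co1 to 30.3% for mt-rnr1. Counting alone gives 6.65% for trnD and at most 2.92% for the other genes. Wilson intervals of 95% for a share in a single sample reached at most 0.123 percentage points to either side, for mt-rnr2 in control I. Relative to the share itself they reached 14.6%, for trnD in control I. These intervals cover counting error only because amplified reads are not independent molecules.

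Groups did not overlap for 2 of the 16 genes. The share of mt-cyb was 6.47%, 6.6% and 6.17% in controls I, II and III and 7.55%, 6.79% and 7.30% in atoh1b-MO II, IV and V. The share of mt-nd1 was 4.54%, 4.51% and 4.58% in the controls and 4.04%, 4.05% and 4.36% in the atoh1b-MO samples. The differences of 0.800 and -0.393 percentage points both had p = 0.1 in a two-sided exact permutation test, the smallest p-value that 3 against 3 samples allow, so no share could be called. Without control III both kept their direction without overlap (p = 0.2 for each in the two-sided exact permutation test). For shares of nuclear genes in the total of their own chromosome, 12.7% lay above all controls and 3.42% below all controls in the same way (12031 genes with a mean count of 100 or more). This background is a rough one, because a nuclear chromosome holds many more genes. Mitochondrial shares also depend on each other, since a few genes hold most of these counts. With 1 of 16 in each direction, the mitochondrial genes are not shown to stand apart from it.

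Control III differed in composition. It had the highest share of the 6 samples for 4 genes (mt-nd1, mt-co2, mt-co3 and mt-nd3) and the lowest for 5 (mt-co1, mt-nd4, mt-nd5, mt-nd6 and mt-cyb). Its share of mt-co2 was 10.4%, against 7.90% and 8.04% in controls I and II and 8.67% to 9.15% in the atoh1b-MO samples. For mt-co3 it was 12.2%, against 9.69% to 10.5% in the other 5 samples. For mt-nd3 it was 0.943%, against 0.631% to 0.755%. At the lower end, its share of mt-nd5 was 2.24%, against 2.30% to 2.74%, and that of mt-nd6 was 0.121%, against 0.144% to 0.187%. A single sample allows no test of these differences. Without control III, mt-co2 and mt-co3, as well as mt-cyb, were higher in share in all 3 atoh1b-MO samples than in controls I and II, the first 2 by 0.935 and 0.518 percentage points (p = 0.1 and 0.2, two-sided exact permutation test, where 0.1 is the smallest p-value possible for 2 against 3). As well as mt-nd1, mt-nd2 was lower, with 4.0% and 3.96% against 3.87%, 3.35% and 3.82%, a difference of -0.302 percentage points (p = 0.3 in the same exact test). These 3 of 16 above and 2 of 16 below compare with 21.5% and 11% of the nuclear genes. With the same limits of this background, they are not shown to stand apart from it either.

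**Figure D5:**
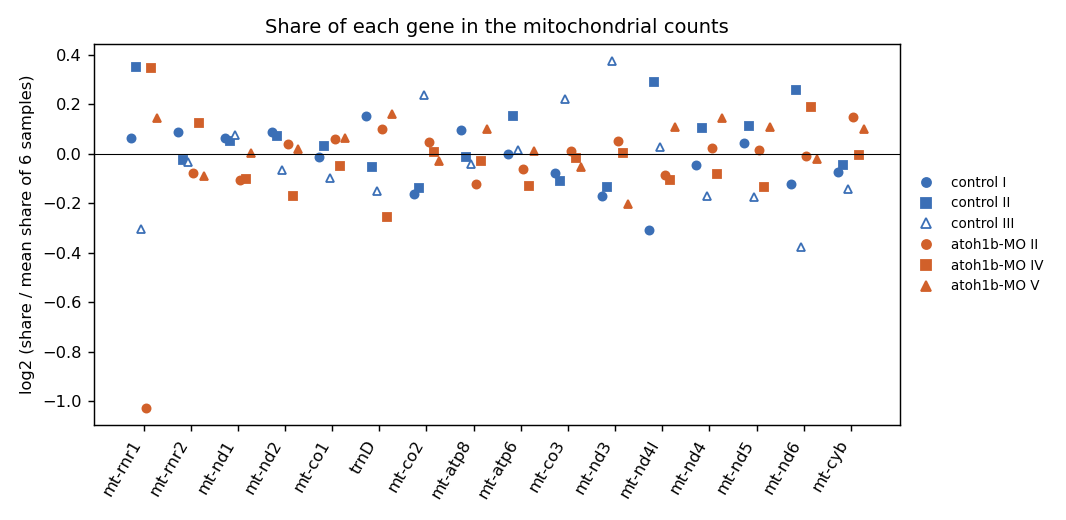
Share of each of the 16 well-counted genes in the mitochondrial counts, as log2 of its ratio to the mean of the 6 samples (vertical axis), 1 point per sample. Control III (open triangles) lies highest for mt-co2, mt-co3 and mt-nd3 and lowest for mt-nd6, atoh1b-MO II lies far below the others for mt-rnr1, and only for mt-cyb and mt-nd1 do the groups part.

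Nuclear genes of mitochondrial function were set beside all genes tested. Of 87 tested nuclear genes for subunits of complexes I to V, 0 were called in either direction in the comparison without control III (edgeR), against 0.598% of all genes tested, and 3 had an unadjusted p-value below 0.05, against 11.2%. With 6 samples 0 of 85 were called (edgeR), against 0% of all genes tested, and 2 had an unadjusted p-value below 0.05, against 5.82%. Their median log2 fold change was 0.04, against 0.01 over all genes tested, and with 6 samples -0.09 against -0.02. Summed over the list, their level was 8234, 7387 and 9180 CPM in controls I, II and III and 7744, 7781 and 7966 CPM in atoh1b-MO II, IV and V, so the groups overlapped. Of 73 genes for mitochondrial ribosomal proteins 0 were called in either comparison (edgeR), with 2 in each at an unadjusted p-value below 0.05, against the same shares of all genes.

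Among 38 genes for the maintenance of mitochondrial DNA, its transcription and RNA processing, 1 was called without control III, against 0.598% of all genes tested, and 2 had an unadjusted p-value below 0.05, against 11.2%. This was angel2, which fell by 0.60 on the log2 scale (standard error 0.09, adjusted p-value 0.0480, edgeR), from 97.9 and 88.0 CPM in controls I and II to 59.7, 62.1 and 62.1 CPM in the atoh1b-MO samples. In control III it stood at 51.0 CPM, below all of them. The polymerase gene polrmt stood at 24.8, 28.0 and 23.0 CPM in the controls and at 22.3, 26.8 and 27.9 CPM in the atoh1b-MO samples. The gene of the packaging and transcription factor, tfam, stood at 61.7, 52.1 and 67.0 CPM against 53.8, 57.4 and 56.9 CPM, and lrpprc, whose product stabilises mitochondrial mRNAs in mammals, stood at 173, 184 and 171 CPM against 178, 200 and 191 CPM. The groups overlapped for all 3, and their log2 fold changes without control III were -0.03, -0.02 and 0.09, with adjusted p-values of 0.955, 0.967 and 0.737 (edgeR).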

How the data were processed

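The authors deposited a table of raw read counts per Ensembl gene with exon coordinates and gene length. The study states mapping with GSNAP to GRCz11 and counting with featureCounts, whereas the submitters' processing notes list GRCz10, bcl2fastq 2.19.1 and featureCounts 1.5.3. Coordinates are given as in the table. The labels describe poly(A) selection and a strand-specific library kit, and the study's methods describe another library protocol. How reads that touch 2 genes were treated, and whether strand was used in counting, is not given in the sources used here. The table's 92 spike-in rows held no counts.

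Counts were filtered with filterByExpr, scaled by TMM and tested with the quasi-likelihood test of edgeR 4.0.16 in R 4.3.3, with p-values adjusted by Benjamini-Hochberg over every tested gene and a threshold of 0.1, as 5 samples without control III and as 6 samples. CPM without scaling were divided by gene length in kb for comparisons between genes. Other CPM, those of nuclear genes and markers included, are TMM-scaled. Shares were compared with two-sided exact permutation tests (scipy 1.17.1). The fit was tested on simulated data. Alternatives were other scalings and filters, DESeq2 1.42.0, limma 3.58.1 (voom with sample weights), other denominators of the shares, and leaving out each sample. Well-counted genes were described one by one and the others by range. Nuclear genes were named where called, with polrmt, tfam, tfb2m, lrpprc and slirp besides. For tfb2m and slirp the log2 fold changes without control III were -0.15 and 0.04. Members and lists were chosen with earlier results of these data known. Symbols came from a gene name table and from RefSeq's annotation of GRCz12tu, used for names only.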

Additional observations from a re-analysis of the deposited data

How the results depend on the processing

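Against controls I and II, 3 mitochondrial genes were called by edgeR at an adjusted p-value below 0.1, and the count depended on most choices. It was 1 at a threshold of 0.05, 7 with scaling by library size alone, 12 without a filter on low counts, 1 with a minimum of 10 counts in every sample, 13 with DESeq2 and 5 with limma voom. It stayed at 3 with the size factors of DESeq2 and with scaling from genes off the mitochondrial genome. Leaving out 1 atoh1b-MO sample gave between 0 and 6 calls, with 0 without atoh1b-MO IV. With 6 samples the count was 0 and rose to 1 with DESeq2, and leaving out 1 sample gave between 0 and 3, with 3 without control III. Of the nuclear lists, 1 gene was called against controls I and II and 4 with DESeq2. These counts are given without the share of all genes called at the same setting. They therefore do not show whether mitochondrial genes stood apart from other genes under each choice. The cause of these differences was not tested.

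The log2 fold change of mt-rnr1 turned to -0.13 against controls I and II and to -0.14 against all controls without atoh1b-MO IV, and leaving out 1 sample gave at most 0.61 and 0.60. No other well-counted gene turned its log2 fold change under any alternative run. Differences in share turned for several genes. With controls I and II only they were -0.000857 percentage points for trnD, 0.518 for mt-co3, 0.04999 for mt-nd3, -0.142 for mt-nd5 and -0.00286 for mt-nd6, and with protein-coding counts as the denominator -0.0272 for mt-nd5. Leaving out 1 sample gave ranges of -0.126 to 0.0756 for mt-rnr1, -1.77 to 0.352 for mt-rnr2, -0.00113 to 0.00316 for trnD, -0.327 to 0.935 for mt-co2, -0.0161 to 0.00386 for mt-atp8, -0.727 to 0.518 for mt-co3, -0.0978 to 0.04999 for mt-nd3, -0.0436 to 0.0227 for mt-nd4l, -0.142 to 0.116 for mt-nd5 and -0.00286 to 0.0305 for mt-nd6. The differences for mt-cyb and mt-nd1 kept their direction, with ranges of 0.632 to 1.01 and -0.498 to -0.336. The mitochondrial share of all counts differed by 0.553 to 1.04 percentage points when 1 sample was left out.

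No paired analysis was possible because the groups share only 1 replicate number, and the clutch that the study's model included is not in the labels. Counting error is wide for the tRNA genes, of which 21 of the 22 lay below a mean count of 100, and the cause of their low counts was not tested. For the mRNAs counting error was below the spread between samples.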
